A study of Mus musculus with 12 samples.

Results

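Respiratory complex I is described here by 36 nuclear genes. They are the genes whose symbol is Nduf followed by a, b, c, s or v and a number, with a mean of at least 1 TPM (a transcript level scaled to length and library size) over 12 libraries of mouse blastocysts. The pattern matched 37 of the 24411 genes counted, and Ndufa4l2 was left out because its mean was 0.125 TPM. By the letter in the symbol, 13 members were of class a, 10 of class b, 2 of class c, 8 of class s and 3 of class v. Assembly factors (Ndufaf genes) and the acyl carrier protein gene Ndufab1 fall outside the pattern. Subunits encoded by mitochondrial DNA and Ndufb1 were not analysed here.

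Each library held poly(A) RNA of a pool of 10 blastocysts from wild-type ICR mice, an outbred stock. Oocytes of superovulated females were fertilized in vitro, and the embryos grew in KSOM medium until 96 hours post insemination (hpi, the usual meaning of the abbreviation in the labels). The groups were HFD siNampt, HFD siNT, HFD C, ND siNampt, ND siNT and ND C, with 2 libraries each. HFD and ND are diets that the labels do not spell out, while the series title speaks of obese and normal weight mice. siNampt is a short interfering RNA against Nampt and siNT a non-targeting one, both electroporated into zygotes at 3 to 6 hpi, and C is the control. Whether C zygotes were electroporated without RNA is not stated by the labels. All groups share the in vitro fertilization and culture. A pool holds all cell types of the embryo, so fewer cells of a type and less RNA per cell cannot be told apart. Whether pools came from separate matings is not given, so the tests measure the spread between these pools.

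Complex I is the largest enzyme of the mitochondrial respiratory chain. It oxidizes NADH to NAD, passes the electrons over flavin and iron-sulfur clusters to ubiquinone, and pumps protons across the inner mitochondrial membrane. Its matrix arm holds an N module, where NADH is oxidized, and a Q module, where ubiquinone is reduced, and its membrane arm holds the proton pumps in a proximal and a distal part. Core subunits, conserved from bacteria, carry the reaction, and accessory subunits surround them. Nampt makes the precursor of NAD from nicotinamide, and NADH, the reduced form of NAD, is the substrate of complex I. The blastocyst is the stage at which oxidative metabolism of the preimplantation embryo increases.

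The libraries held 42473129 to 50503064 expected counts, and each member had at least 2491 counts in each library. The targeted gene, Nampt, stood at 50.3 and 44.0 CPM in HFD siNampt, 53.9 and 37.7 in ND siNampt, 61.3 and 66.0 in HFD siNT, 74.6 and 49.4 in ND siNT, 67.0 and 57.3 in HFD C and 54.2 and 38.2 in ND C, where CPM are counts scaled to library size with TMM (trimmed mean of M values) factors. Its log2 fold change between siNampt and siNT was -0.43 (SE 0.17), with an adjusted p of 0.396 by edgeR's quasi-likelihood test, and the groups overlapped. Between siNampt and C it was -0.21 (SE 0.17). Mean Nampt was 47.2 CPM in HFD siNampt and 62.1 in HFD C, and 45.8 in ND siNampt and 46.2 in ND C. Markers of trophectoderm, inner cell mass and primitive endoderm were present at a mean of at least 1 TPM for 11 of 12, 10 of 10 and 6 of 6 listed genes. For cumulus or granulosa cells 0 of 8 markers reached that level, and their summed level was 0.32 to 0.80 TPM. HFD siNT replicate 1 stood apart in the gap between transcript length and effective length, a measure of fragment size, at 186 bases against 211 to 231 bases in the other 11 libraries. HFD siNampt replicate 1 stood apart from the other 3 siNampt libraries in the complex I genes themselves, as given with the library values.

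All 36 members were well expressed in the blastocysts. Their mean levels reached 2995 TPM for Ndufa4, with a median of 559.9 TPM, and 19 were over 500 TPM. Together they made up 2.71% to 3.12% of the TPM of a library. Levels between genes are compared in TPM only, because TPM accounts for length. Member transcripts were 349 to 2706 bases long, where the gap between length and effective length was 186 to 231 bases. The TPM of the shortest thus rests much on the estimate of fragment size, whose part in the order of levels was not tested.

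The 7 core subunits encoded in the nucleus were the less abundant part. Their means were at most 458 TPM with a median of 347 TPM, against 124 to 2995 TPM with a median of 679.9 TPM for the other 29 members. In the N module, Ndufv1, which binds NADH and the flavin, averaged 132 ± 20.3 TPM in siNampt, 99.6 ± 11.3 in siNT and 117 ± 13.5 in C (SD, n = 4 each). Ndufv2, an iron-sulfur subunit beside it, averaged 393 ± 25.1 TPM in siNampt, 474 ± 17.0 in siNT and 429.6 ± 15.1 in C. Ndufs1, which carries further iron-sulfur clusters, averaged 80.5 ± 19.0 TPM in siNampt, 80.4 ± 7.89 in siNT and 87.3 ± 5.33 in C. Ndufv2 lay above Ndufv1 and Ndufs1 in each of the 12 libraries. In the Q module, Ndufs7, which carries the last iron-sulfur cluster before ubiquinone, averaged 491 ± 81.8 TPM in siNampt, 437 ± 24.6 in siNT and 444 ± 65.2 in C. Ndufs3 averaged 453 ± 32.3 TPM in siNampt, 461 ± 9.35 in siNT and 457 ± 10.3 in C, and its coefficient of variation over the 12 libraries, 4.10%, was the smallest among the members. Ndufs8, a ferredoxin-like iron-sulfur subunit, averaged 347 ± 22.2 TPM in siNampt, 349 ± 18.0 in siNT and 344 ± 35.0 in C.

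Accessory subunits of the N module lay between Ndufs4 at 255 ± 22.1 TPM and Ndufs6 at 1173 ± 74.9 TPM (SD, n = 12), and both are needed for a stable N module. Ndufa12 stood at 1121 ± 67.4 TPM, Ndufa2 at 474 ± 39.8 TPM and Ndufv3 at 467 ± 39.8 TPM. Ndufa5, an accessory subunit of the Q module, stood at 1254 ± 107 TPM. Of the other matrix-arm genes, Ndufa7 stood at 1507 ± 112 TPM, Ndufa6, which binds an acyl carrier protein, at 875 ± 79.0 TPM and Ndufa9, a nucleotide-binding subunit near the junction of the arms, at 485 ± 39.7 TPM.

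In the proximal membrane arm, which anchors on the matrix arm, 9 members ran from Ndufa11 at 124 ± 11.7 TPM to Ndufc1 at 2560.3 ± 253 TPM. The second class c gene, Ndufc2, stood at 628 ± 46.5 TPM, so both members of that class lay over 500 TPM. Ndufa3 stood at 1352 ± 104 TPM, Ndufa1 at 895 ± 113 TPM and Ndufa8 at 631 ± 61.8 TPM. Lower in that arm were Ndufa10 at 270.3 ± 23.3 TPM, Ndufs5 at 232 ± 28.02 TPM and Ndufa13 at 188 ± 16.5 TPM. The 10 members of the distal membrane arm, all of class b, had means from 483 TPM for Ndufb11 to 1628 TPM for Ndufb6, with coefficients of variation over the 12 libraries of 5.20% to 10.04%. Between them were Ndufb8 at 1618 ± 113 TPM, Ndufb9 at 1402 ± 73.0 TPM, Ndufb4 at 1156 ± 79.8 TPM, Ndufb3 at 1156 ± 95.4 TPM and Ndufb7 at 679.9 ± 68.1 TPM. Ndufb2 stood at 593 ± 45.0 TPM, Ndufb10 at 526 ± 43.5 TPM and Ndufb5 at 493 ± 45.8 TPM. Ndufa4, the most abundant member at 2995 ± 293 TPM, is today assigned to cytochrome c oxidase (complex IV) rather than complex I, though its symbol matches the pattern.

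In the order of mean levels, 3 of the 35 pairs of neighbours did not overlap in their ranges over the 12 libraries. They were Ndufc1 above Ndufb6, Ndufa6 above Ndufb7 and Ndufa11 below Ndufa13. Ndufv1 had a coefficient of variation of 16.9%, against a median of 8.56% over the members.

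**Figure D1:**
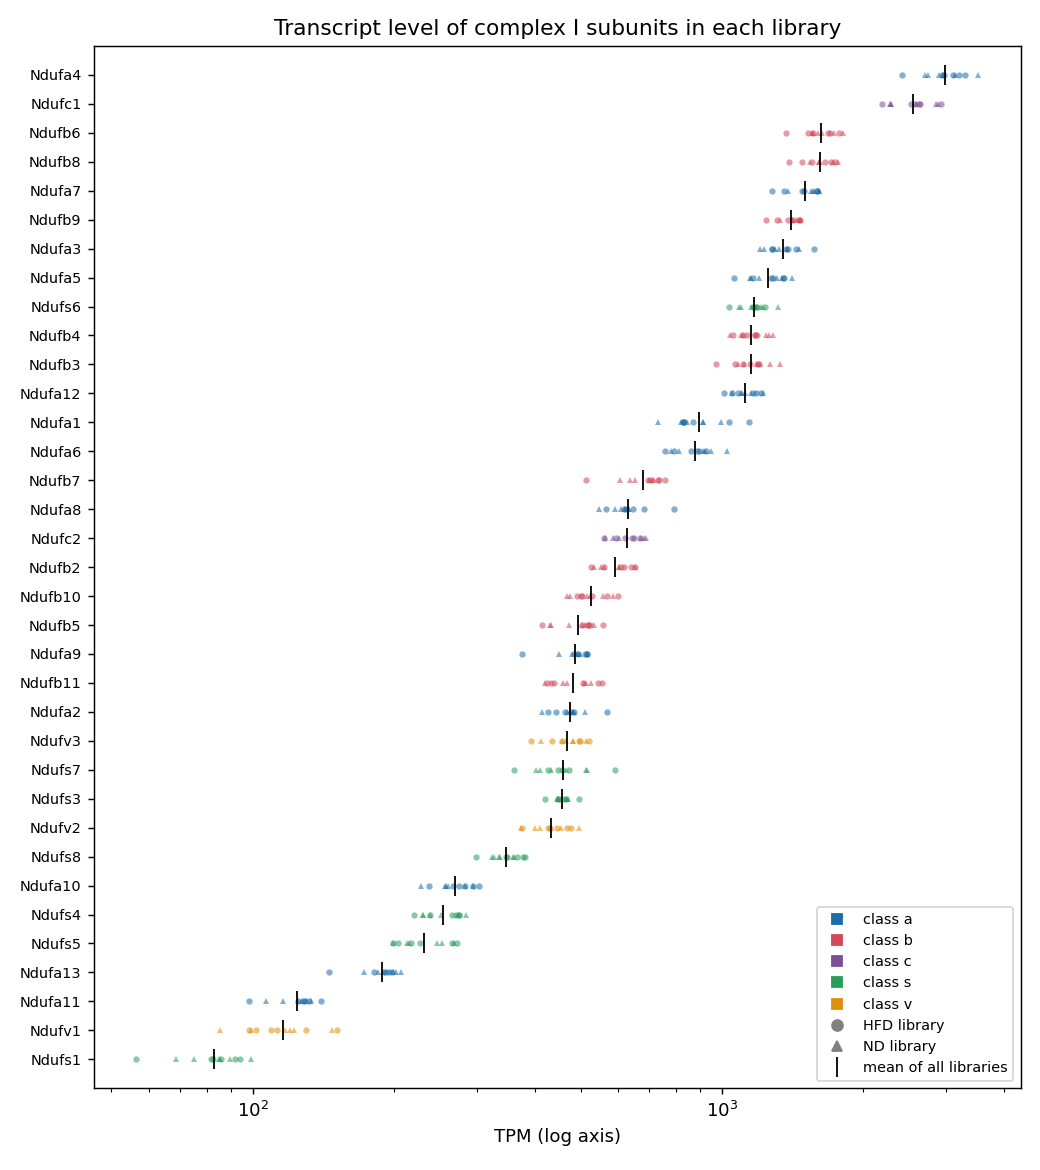
TPM on a log axis of 35 complex I genes in each of the 12 libraries, coloured by class, with circles for HFD and triangles for ND libraries and a bar at the mean. Ndufa4 (2995 TPM) and Ndufc1 (2560 TPM) stand above the rest, and core subunits such as Ndufs1 (82.8 TPM) and Ndufv1 (116 TPM) at the low end.

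Promoter windows of 300 bases (250 before and 50 after the annotated start, RefSeq on GRCm38.p6) were given for 32 of the 36 members. They are shown because the members are described together and because NRF-1, YY1, ETS factors such as GABP and Sp1 are textbook regulators of respiratory genes. The NRF-1 motif (GCGC, any base, then TGCGC, searched on both strands like the others) was found in 7 of the 32 (21.9%), against 5.19% of all 27025 genes with a window. The YY1 motif AAGATGGCG was found in 5 (15.6%), against 1.64% of all genes. The ETS motif CCGGAAG was found in 4 (12.5%), against 9.93%, and the Sp1 motif GGGCGG in 14 (43.8%), against 38.2%. The shares of all genes include genes not expressed in the blastocysts, and shares over well expressed genes were not taken. The windows printed are those of Ndufv2 and Ndufb4, the members of smallest p between siNampt and siNT, and of Ndufs6, the 1 member whose window holds both the NRF-1 and the YY1 letters. Each reads 5′ to 3′ on the strand of its gene, and capitals mark matches to the NRF-1, YY1 and ETS letters, while Sp1 matches are left in lower case.
Ndufv2: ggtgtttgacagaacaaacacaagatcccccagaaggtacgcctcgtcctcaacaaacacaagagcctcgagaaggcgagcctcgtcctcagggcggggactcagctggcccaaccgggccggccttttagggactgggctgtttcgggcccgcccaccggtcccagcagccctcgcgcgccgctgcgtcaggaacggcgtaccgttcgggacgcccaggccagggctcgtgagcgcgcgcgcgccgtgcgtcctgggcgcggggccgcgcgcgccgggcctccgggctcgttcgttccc
Ndufb4: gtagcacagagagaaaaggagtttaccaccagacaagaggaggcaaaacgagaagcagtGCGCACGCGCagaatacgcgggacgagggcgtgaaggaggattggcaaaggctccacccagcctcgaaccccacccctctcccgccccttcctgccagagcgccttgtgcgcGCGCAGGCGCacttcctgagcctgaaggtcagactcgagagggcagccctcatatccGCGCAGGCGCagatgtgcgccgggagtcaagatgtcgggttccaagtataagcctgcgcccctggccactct
Ndufs6: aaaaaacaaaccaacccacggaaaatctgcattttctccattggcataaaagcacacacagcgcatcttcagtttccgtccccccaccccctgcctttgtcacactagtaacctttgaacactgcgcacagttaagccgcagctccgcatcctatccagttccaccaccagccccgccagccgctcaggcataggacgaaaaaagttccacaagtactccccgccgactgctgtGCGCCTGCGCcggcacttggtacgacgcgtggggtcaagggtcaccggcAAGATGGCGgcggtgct

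The window of Ndufv2 (chr17:66101510-66101809 on the - strand) held 0 of these 3 motifs, that of Ndufb4 (chr16:37654319-37654618, - strand) held 3 NRF-1 matches, and that of Ndufs6 (chr13:73328433-73328732, - strand) held 1 NRF-1 and 1 YY1 match. No marked matches overlapped each other in these windows. NRF-1 letters were also in the windows of Ndufa5, Ndufa6, Ndufa8, Ndufa11 and Ndufs5, and YY1 letters in those of Ndufa9, Ndufc1, Ndufs4 and Ndufs7. A match is a description of letters only.

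The series title names a knockdown of Nampt in early embryos, and siNampt against siNT over both diets sets that siRNA against its non-targeting control, with 4 libraries each. Most complex I genes lay lower in siNampt by small amounts, and none passed the test. Of the 36 log2 fold changes 33 lay below 0, where 47.2% of the 14743 genes tested did, and the median was -0.21, against 0.03 over all genes tested. By edgeR's quasi-likelihood test with Benjamini-Hochberg adjustment 0 members passed the threshold of 0.05, as did 0% of all genes, and the smallest adjusted p of a member was 0.396. At an unadjusted p under 0.05, 18 members were lower, against 5.05% of all genes, and 1 was higher, against 6.1%. DESeq2 also called 0 members, with 19 lower and 0 higher at an unadjusted p under 0.05. The 4 siNampt libraries all lay below the 4 siNT libraries for 9 members, against 2.71% of all genes, and above them for 0 members, against 3.38%. Those 9 were Ndufa3, Ndufa5, Ndufa12, Ndufb2, Ndufb4, Ndufs3, Ndufs6, Ndufs8 and Ndufv2. The count is on TMM-scaled CPM and was not repeated in TPM. In TPM the siNampt and siNT means of Ndufs3 and Ndufs8, given above, differed by less than their SD.

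Ndufv2 had the smallest p. It lies at chr17:66078795-66101559 on the - strand (GRCm38, GENCODE). Its level was 566 and 454 CPM in HFD siNampt, 527 and 487 in ND siNampt, 608 and 699 in HFD siNT, 738 and 673 in ND siNT, 616 and 556 in HFD C and 576 and 520.2 in ND C. Each siNampt library lay below each siNT library, which by itself makes siNampt the lower one in 4 of 4 pairs matched by diet and batch. The log2 fold change was -0.42 (SE 0.10), with an adjusted p of 0.396 by edgeR. Ndufb4, at chr16:37647602-37654368 on the - strand, stood at 284 and 230.4 CPM in HFD siNampt, 241 and 264 in ND siNampt, 307 and 312 in HFD siNT, 333 and 349 in ND siNT, 269 and 259.7 in HFD C and 303 and 260.4 in ND C. Its groups did not overlap between siNampt and siNT, and its log2 fold change was -0.35 (SE 0.10), with an adjusted p of 0.396 by edgeR. Ndufb4 is an accessory subunit of the distal membrane arm.

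The nuclear core subunits did not share 1 direction. Log2 fold changes between siNampt and siNT were below 0 for 5 of the 7, with a median of -0.15 over all 7. Ndufv1 stood at 153 and 192 CPM in HFD siNampt, 204 and 165 in ND siNampt, 153 and 156 in HFD siNT, 155 and 132 in ND siNT, 143 and 177 in HFD C and 172 and 156 in ND C. It was higher in siNampt in 3 of 4 pairs, its log2 fold change was 0.26 (SE 0.12), and HFD siNampt replicate 1 lay within the range of siNT. It did not pass the test, with an adjusted p of 0.439 by edgeR. Ndufv1 and Ndufv2, neighbours in the N module, thus had fold changes of opposite sign.

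Ndufs3 stood at 305 and 329 CPM in HFD siNampt, 319 and 321 in ND siNampt, 336 and 358 in HFD siNT, 379.8 and 377 in ND siNT, 337 and 323 in HFD C and 343 and 312 in ND C, and its 4 siNampt libraries lay below the 4 siNT libraries with a log2 fold change of -0.19 (SE 0.08). Ndufs8 stood at 202 and 199 CPM in HFD siNampt, 192 and 187 in ND siNampt, 215 and 221 in HFD siNT, 210.3 and 232 in ND siNT, 178 and 215 in HFD C and 210.1 and 187 in ND C, again with no overlap and with -0.17 (SE 0.09). Ndufs1 stood at 141 and 209 CPM in HFD siNampt, 247 and 184 in ND siNampt, 199 and 235 in HFD siNT, 238 and 191 in ND siNT, 214 and 229 in HFD C and 213 and 213 in ND C. Its lowest value was in HFD siNampt replicate 1, the groups overlapped, and its log2 fold change was -0.15 (SE 0.14). Ndufs7 stood at 248 and 293 CPM in HFD siNampt, 214 and 276 in ND siNampt, 246 and 256 in HFD siNT, 249 and 283 in ND siNT, 201 and 249 in HFD C and 235 and 269 in ND C, with overlapping groups and a log2 fold change of -0.0008 (SE 0.12). RSEM gave Ndufs1 and Ndufs5 counts that were not whole in all 12 libraries, which RSEM gives for reads that match more than 1 gene, and their values are uncertain in that respect. Annotated genes on the opposite strand overlap 14 members, Ndufv2, Ndufs1, Ndufs3 and Ndufs6 among them, and the labels do not state the strand setting of the counting, so it is unknown whether the reads of such a pair were separated.

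**Figure D2:**
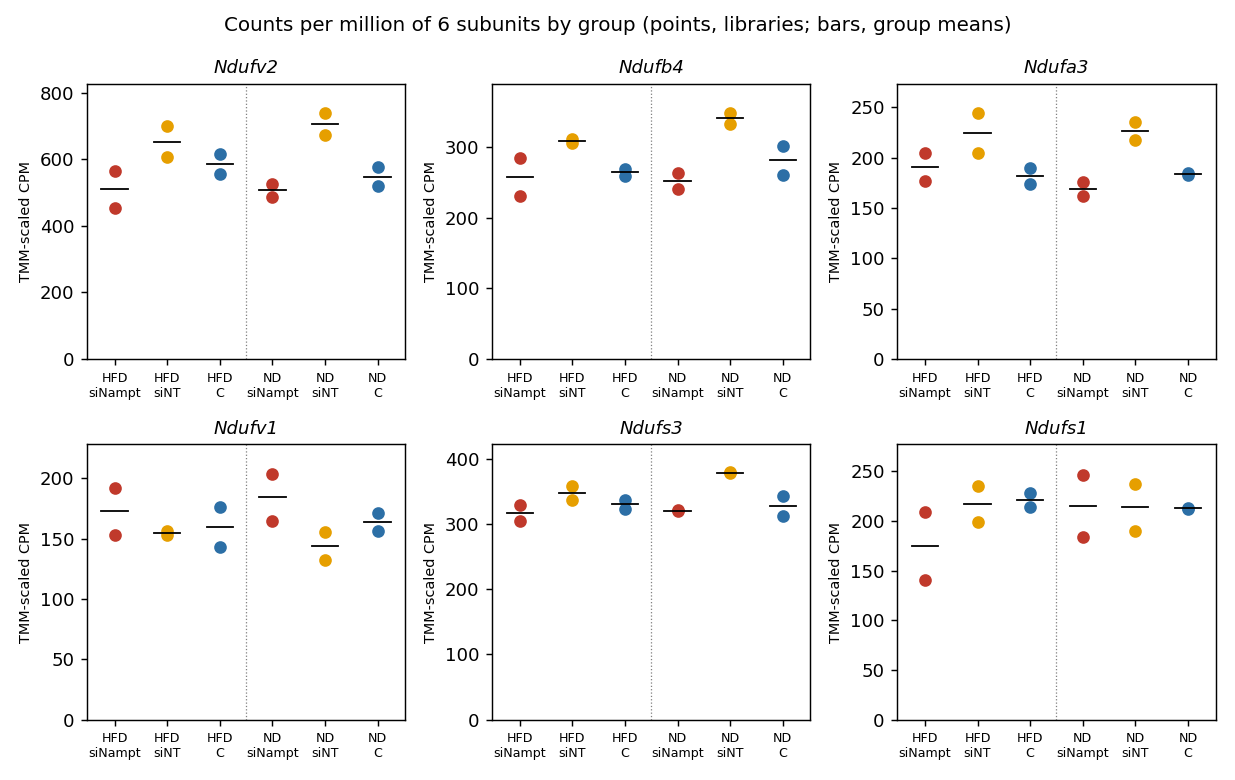
TMM-scaled CPM of 6 complex I genes in the 6 groups, with 1 point a library and a bar at the group mean. Ndufv2, Ndufb4, Ndufa3 and Ndufs3 are lower in siNampt than in siNT in both diets, Ndufv1 is higher on average (log2 fold change 0.26), and the treatments overlap for Ndufs1.

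Among the members other than the core, Ndufa4 of complex IV included, 28 of 29 lay below 0 between siNampt and siNT, with a median of -0.25. Their transcripts are shorter, with a median length of 560 bases against 1540 bases for the core subunits. The part of length in the difference from the core was not tested. All 10 distal membrane-arm genes did, with a median of -0.26 and values from -0.35 to -0.12, and 8 of them were lower at an unadjusted p under 0.05, against 5.05% of all genes. With counts corrected for GC and length, 1 of the 10, Ndufb8, was lower at that p. Ndufb6 stood at 569 and 398 CPM in HFD siNampt, 499 and 493 in ND siNampt, 524 and 599 in HFD siNT, 583 and 651 in ND siNT, 539.5 and 474 in HFD C and 554 and 484 in ND C, with a log2 fold change of -0.27 (SE 0.11) and an overlap through HFD siNampt replicate 1. Ndufb11 stood at 355 and 294 CPM in HFD siNampt, 263 and 323 in ND siNampt, 281 and 383 in HFD siNT, 364 and 327 in ND siNT, 278 and 268 in HFD C and 299 and 323 in ND C, with -0.13 (SE 0.12) and overlapping groups. The 9 proximal membrane-arm genes had a median of -0.18. Ndufc1 stood at 594 and 403 CPM in HFD siNampt, 445 and 461 in ND siNampt, 581 and 574 in HFD siNT, 585 and 651 in ND siNT, 525 and 498 in HFD C and 581 and 455 in ND C. Its log2 fold change was -0.33 (SE 0.12), and HFD siNampt replicate 1 reached into the range of siNT. Ndufc2 stood at 304 and 237 CPM in HFD siNampt, 257 and 279 in ND siNampt, 295 and 329.8 in HFD siNT, 356 and 360.1 in ND siNT, 318 and 269.9 in HFD C and 315 and 263 in ND C. Its log2 fold change was -0.31 (SE 0.11), with the same overlap. Ndufa11, an accessory subunit of that arm, stood at 343 and 296 CPM in HFD siNampt, 261 and 313 in ND siNampt, 308 and 347 in HFD siNT, 319.8 and 364 in ND siNT, 252 and 297 in HFD C and 308 and 298 in ND C, with -0.14 (SE 0.11) and overlapping groups.

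In the accessory N module, Ndufs6 stood at 363 and 312 CPM in HFD siNampt, 309 and 352 in ND siNampt, 365 and 376 in HFD siNT, 379 and 403 in ND siNT, 304 and 338 in HFD C and 386 and 313 in ND C, with no overlap between siNampt and siNT and a log2 fold change of -0.19 (SE 0.10). Ndufv3 stood at 152 and 123 CPM in HFD siNampt, 124 and 141 in ND siNampt, 155 and 161 in HFD siNT, 145 and 166 in ND siNT, 119.7 and 139 in HFD C and 139 and 140.3 in ND C, with -0.21 (SE 0.10) and an overlap. Ndufa4, the complex IV subunit of the set, stood at 919 and 609 CPM in HFD siNampt, 739.8 and 748 in ND siNampt, 917 and 912 in HFD siNT, 974 and 1099.8 in ND siNT, 889 and 793 in HFD C and 824 and 784 in ND C. Its log2 fold change was -0.37 (SE 0.12), and HFD siNampt replicate 1 lay within the range of siNT. Ndufa5, of the Q module, had -0.36 (SE 0.11) with no overlap. Among the other distal-arm genes the estimate was -0.35 (SE 0.12) for Ndufb5, -0.32 (SE 0.11) for Ndufb2 and -0.12 (SE 0.11) for Ndufb7, the lowest and the highest of that arm among them. Ndufa8, a proximal-arm subunit with twin cysteine motifs, was the 1 accessory member not below 0, at 0.0018 (SE 0.09).

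Set against each gene's own mean log2 CPM over the 12 libraries, 31 of 36 members were below it in HFD siNampt replicate 2, 30 in ND siNampt replicate 1 and 25 in ND siNampt replicate 2. By contrast, 27 were above it and 9 below in HFD siNampt replicate 1. In siNT, 23 and 34 members were above their mean in HFD, and 32 and 30 in ND. In C, 13 and 9 were above in HFD, and 24 and 7 in ND. In libraries matched by diet and batch, the median difference of siNampt minus siNT was 0.01 in HFD batch 1 and -0.41 in HFD batch 2, and it was -0.30 in ND batch 1 and -0.23 in ND batch 2. Fitted within a batch, the median over both diets was -0.15 in batch 1 and -0.31 in batch 2. Without HFD siNampt replicate 1 it was -0.32, with 23 members lower at an unadjusted p under 0.05, and without HFD siNampt replicate 2 it was -0.19, with 12.

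**Figure D3:**
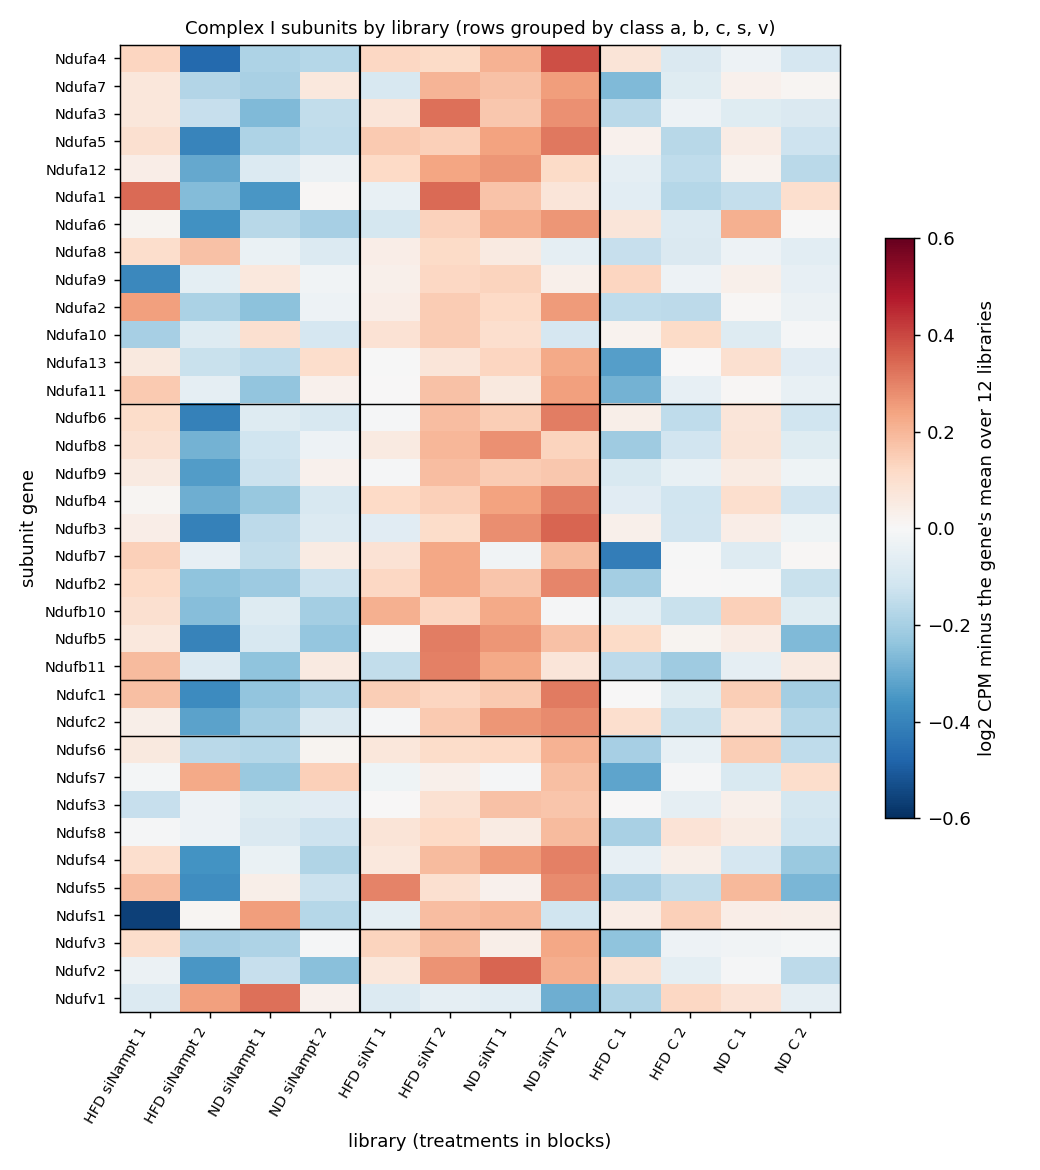
Log2 CPM minus the gene's mean over 12 libraries (red above, blue below), for 35 complex I genes in rows by class and the libraries in columns by treatment. HFD siNampt replicate 1, mostly above the gene means, differs from the other 3 siNampt columns, and Ndufv1 is on average lowest in siNT.

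Summed levels were 3.12% and 2.71% of TPM in HFD siNampt, 2.72% and 2.82% in ND siNampt, 2.94% and 3.02% in HFD siNT, 3.00% and 3.10% in ND siNT, 2.81% and 2.87% in HFD C and 3.04% and 2.87% in ND C. The averages were 2.84% ± 0.195 in siNampt, 3.01% ± 0.0669 in siNT and 2.90% ± 0.0979 in C (SD, n = 4 each). The ranges of siNampt and siNT overlapped. The core subunits took 6.93% ± 0.819 of the summed TPM of the members in siNampt, 6.47% ± 0.230 in siNT and 6.69% ± 0.351 in C. The lowest and the highest core share, 5.98% and 7.98%, were in the 2 replicates of HFD siNampt.

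The summed level of 12 markers of trophectoderm, the outer cell layer, of which 11 reached a mean of 1 TPM, was 3489 to 5334 TPM in siNampt, 2818 to 3655 TPM in siNT and 3071 to 3897 TPM in C. The lowest siNampt value was that of HFD siNampt replicate 1. Of the 12 markers 0 were at 0 in all libraries. Single markers differed: between siNampt and siNT, the log2 fold changes of those tested ran from -0.06 (Fgfr2) to 1.47 (Krt19) in ND. In HFD they ran from -0.91 (Elf5) to 0.47 (Tead4), and 0 passed the adjusted threshold in either diet. Inner cell mass markers summed to 342 to 490.0 TPM in siNampt, 321 to 433 TPM in siNT and 362 to 411 TPM in C. These sums do not show single markers, which went in both directions. Their log2 fold changes between siNampt and siNT ran from -0.9996 (Sox2, SE 0.38) to 0.39 (Pou5f1, SE 0.23) in ND. Esrrb was at -0.94 and Prdm14 at -0.91 there. In HFD they ran from -0.26 (Tdgf1) to 0.61 (Prdm14), and 0 passed the adjusted threshold in either diet. Primitive endoderm markers summed to 57.0 to 85.7 TPM in siNampt, 54.9 to 62.6 TPM in siNT and 53.6 to 76.7 TPM in C. Y-linked genes, which follow the share of male embryos in a pool, summed to 34.8 to 174 TPM in siNampt, 83.4 to 184 TPM in siNT and 54.9 to 154 TPM in C. The part of cell or sex composition in the complex I values was not tested.

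In siNampt against C the complex I genes lay close to the level of C. Of 36 members 22 lay below 0, against 48.9% of all genes, the median was -0.03, and 0 passed edgeR's threshold, also by DESeq2. At an unadjusted p under 0.05, edgeR and DESeq2 each had 0 lower and 0 higher, against 1.61% and 2.19% of all genes by edgeR. The smallest adjusted p of a member was 0.999 by edgeR. Ndufa6 and Ndufv2 had the smallest p. Ndufa6 stood at 309 and 237 CPM in HFD siNampt, 272 and 266 in ND siNampt, 284 and 336 in HFD siNT, 355 and 367 in ND siNT, 322 and 289 in HFD C and 354 and 305 in ND C, with a log2 fold change of -0.22 (SE 0.11) against C, and was lower in 4 of 4 pairs, while HFD siNampt replicate 1 lay within the range of C. For Ndufv2 it was -0.16 (SE 0.10), also lower in 4 of 4 pairs and overlapping. Without HFD siNampt replicate 1, 6 members were lower at an unadjusted p under 0.05 in this comparison. Batch 1 alone gave a median of 0.0028 and batch 2 alone -0.07. The 4 siNampt libraries lay all below or all above the 4 C libraries for 0 members, against 0.861% of all genes below and 1.45% above.

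The non-targeting control lay above C. In siNT against C, 3 of 36 log2 fold changes were below 0, where 52.2% of all genes were, and the median was 0.21, against -0.01 over all genes. All 29 members other than the core, Ndufa4 included, were above 0, from 0.05 to 0.30, and 4 of the 7 core subunits, whose median length is greater, were. None passed by edgeR or DESeq2, and the smallest adjusted p was 0.984 by edgeR. At an unadjusted p under 0.05, 8 were higher by each tool, against 1.97% of all genes by edgeR, and 0 were lower, against 2.42%. With the replicate block it was 11 higher, without HFD siNampt replicate 1 it was 16 and without ND C replicate 2 it was 4. With the GC and length correction it was 1 higher, against 1.84% of all genes, and with limma on log2 TPM it was 0, against 0.411%, with member medians of 0.057 and 0.056. The limma median is not relative to all genes, whose own median shifted on the TPM scale, as given further down. In TMM-scaled CPM the siNT libraries all lay above the C libraries for 9 members, against 1.51% of all genes, and below for 0, against 1.76%. Batch 1 alone gave a median of 0.16 and batch 2 alone 0.25.

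Ndufa3 and Ndufa12 had the smallest p. Ndufa3, at chr7:3617347-3620165 on the + strand, is a small subunit of the proximal membrane arm. It stood at 204 and 177 CPM in HFD siNampt, 162 and 176 in ND siNampt, 204 and 244 in HFD siNT, 217 and 235 in ND siNT, 174 and 190.1 in HFD C and 185 and 183 in ND C. All 4 siNT libraries lay above the siNampt and the C libraries, though HFD siNT replicate 1 and HFD siNampt replicate 1 were level at 204 CPM. The log2 fold change of siNT against C was 0.30 (SE 0.10). Ndufa12 stood at 404 and 318 CPM in HFD siNampt, 372 and 384 in ND siNampt, 427 and 463 in HFD siNT, 473 and 425 in ND siNT, 378 and 354 in HFD C and 399 and 352 in ND C, with 0.27 (SE 0.10) and no overlap between siNT and C. Ndufv1 was on the other side, at -0.12 (SE 0.12).

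These comparisons share libraries, so their values are given side by side and not correlated. For Ndufv2, siNampt against siNT gave -0.42, siNampt against C gave -0.16 and siNT against C gave 0.26. For Ndufb4 these were -0.35, -0.10 and 0.25, for Ndufa3 -0.33, -0.03 and 0.30, and for Ndufv1 0.26, 0.14 and -0.12. In Ndufv2, Ndufb4 and Ndufa3 the estimate of siNT was the highest of the 3 treatments, and in Ndufv1 the lowest.

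**Figure D4:**
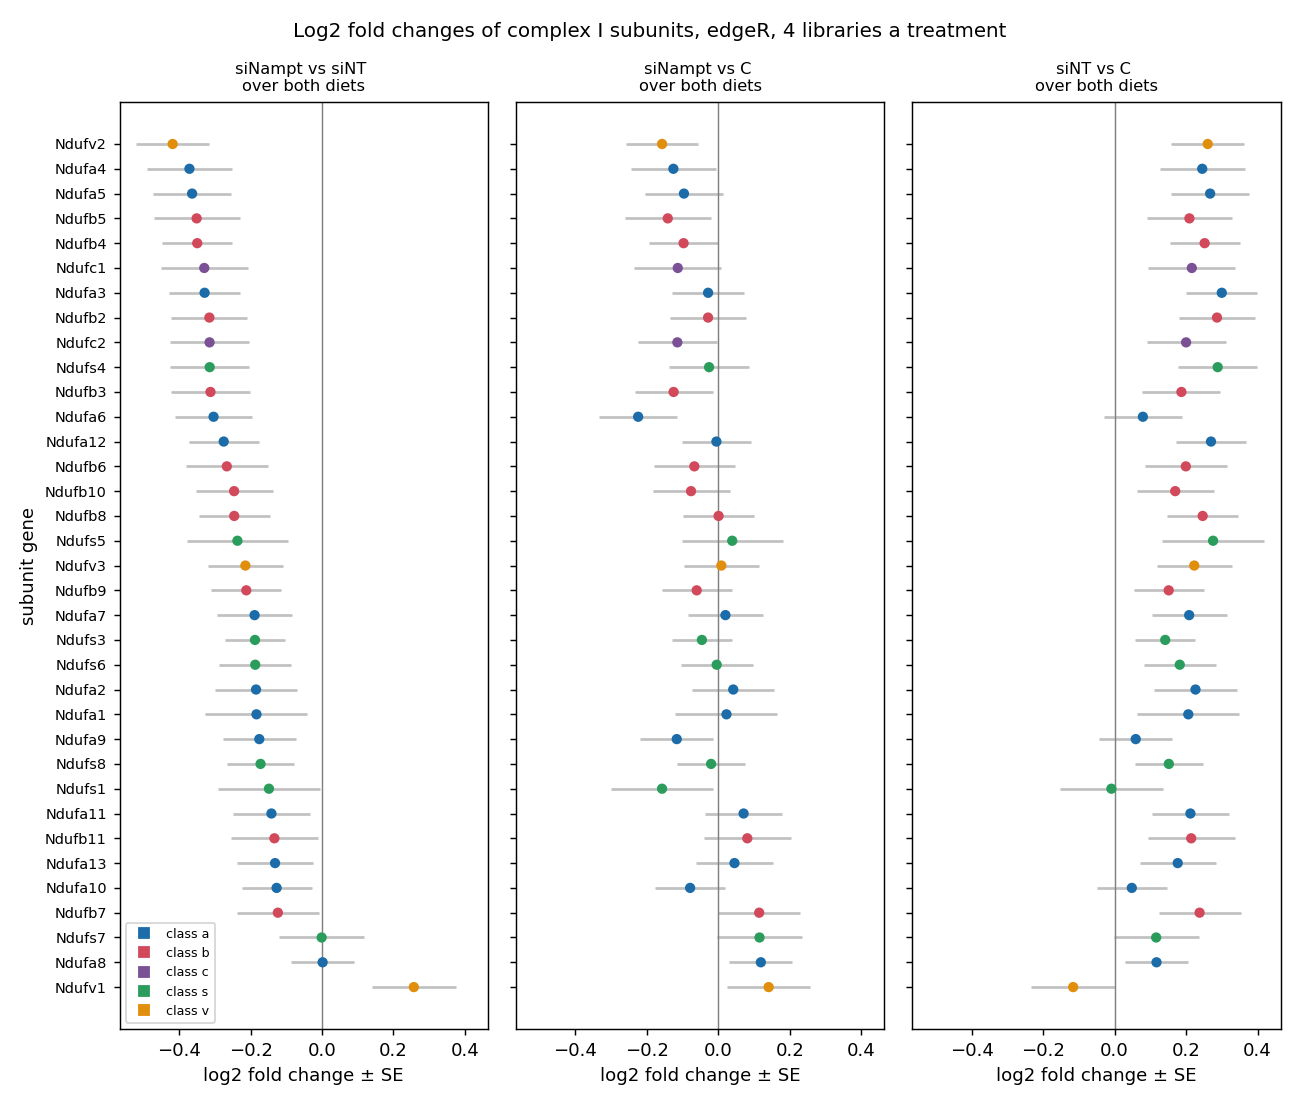
Log2 fold changes with SE bars of 35 complex I genes over both diets, for siNampt against siNT, siNampt against C and siNT against C, each with 4 libraries a treatment and in the same gene order. The medians over all 36 members are -0.21, -0.03 and 0.21, and 0 genes passed the adjusted threshold in any panel.

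Within the diets the estimates rest on 2 libraries a group. In HFD, siNampt against siNT had a median of -0.21 with 32 of 36 members below 0, against 46.3% of all genes. The median was -0.14 with the GC and length correction and -0.044 with limma on log2 TPM, where that of all genes was 0.09. The smallest adjusted p was 0.923 by edgeR. At an unadjusted p under 0.05, 1 member was lower, against 2.31% of all genes, and 2 with the replicate block, while 0 were higher, against 1.97%, and DESeq2 gave 1 and 0. Without HFD siNampt replicate 1 the median was -0.37, with 17 members lower at an unadjusted p under 0.05, and without replicate 2 it was -0.03, with 2 lower. Without HFD siNT replicate 2, 0 were lower at that p. Ndufv2 and Ndufa9 had the smallest p in HFD, at -0.36 (SE 0.15) and -0.29 (SE 0.14). Ndufa9 stood at 416 and 521 CPM in HFD siNampt, 567 and 536 in ND siNampt, 556 and 592 in HFD siNT, 597 and 555 in ND siNT, 594 and 532 in HFD C and 556 and 525 in ND C. In HFD both of its siNampt libraries lay below both siNT libraries, and in ND the siNampt and siNT libraries overlapped.

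In ND the median was -0.25 with 33 of 36 below 0, against 49% of all genes. None passed by edgeR or DESeq2, and the smallest adjusted p was 0.536 by edgeR. At an unadjusted p under 0.05, 12 were lower, against 3.74%, and 0 higher, against 4.61%, while DESeq2 gave 11 and 0. Without ND siNT replicate 2 the count was 1 lower. The GC and length correction left 3 lower, against 2.47% of all genes, and 0 higher, against 2.66%, with a median of -0.049. Limma on log2 TPM left 2 lower, against 1.12% of all genes, and 2 higher, against 11.4%, with a median of -0.080. That median is not relative to all genes, more of which were higher than lower at that p. The smallest p were again those of Ndufv2, at -0.48 (SE 0.15), and Ndufb4, at -0.43 (SE 0.14).

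The test of whether the response differed between the diets, the response in HFD minus that in ND, gave 0 members past the threshold, with a smallest adjusted p of 1.00 by edgeR. Unadjusted counts were 0 in each direction by edgeR and DESeq2, against 1.62% of all genes lower and 1.44% higher. The median was 0.12, against 0.02 over all genes, with SE of 0.17 to 0.30 per gene, so differences of that size were not detectable. Ndufa10 and Ndufa2 had the smallest p. Ndufa10, a subunit related to nucleoside kinases, stood at 237 and 258 CPM in HFD siNampt, 291 and 253 in ND siNampt, 289 and 302 in HFD siNT, 291 and 253 in ND siNT, 276 and 294 in HFD C and 258 and 270.3 in ND C, with a difference of -0.26 (SE 0.19). Ndufa2, a thioredoxin-like subunit of the N module, stood at 220.3 and 163 CPM in HFD siNampt, 157 and 182 in ND siNampt, 191 and 206 in HFD siNT, 202 and 221 in ND siNT, 167 and 166 in HFD C and 186 and 181 in ND C, with 0.27 (SE 0.23). The sign of the median difference turned, to -0.05, without HFD siNampt replicate 1, and was 0.26 without HFD siNampt replicate 2, with 4 members higher and 1 lower at an unadjusted p under 0.05. With the GC and length correction it was -0.08.

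Diet itself went with no detectable difference in complex I. In HFD against ND over all treatments, with 6 libraries each, 26 of 36 members lay below 0, against 49.2% of all genes, and the values ran from -0.13 to 0.07 with a median of -0.03. By edgeR and DESeq2 0 passed, and 0 had an unadjusted p under 0.05 in either direction, against 1.49% of all genes lower and 1.72% higher by edgeR. The smallest adjusted p was 1.00 by edgeR. The groups did not overlap for 0 members, against 0.0475% of all genes in each direction. Summed levels were 2.91% ± 0.150 of TPM in HFD and 2.92% ± 0.146 in ND (SD, n = 6 each). Batch 1 alone gave a median of -0.02 and batch 2 alone -0.05, and without HFD siNampt replicate 1, 2 members were lower at an unadjusted p under 0.05. Ndufb3 and Ndufa7 had the smallest p, at -0.13 (SE 0.09) and -0.11 (SE 0.09). Ndufb3, of the distal membrane arm, stood at 382 and 280.5 CPM in HFD siNampt, 333 and 351 in ND siNampt, 355 and 401 in HFD siNT, 449.9 and 474 in ND siNT, 379 and 343 in HFD C and 382 and 365 in ND C, and was lower in HFD in 5 of 6 pairs of the same treatment and batch. Ndufa7 stood at 499 and 421 CPM in HFD siNampt, 416 and 498 in ND siNampt, 444 and 547 in HFD siNT, 537 and 565 in ND siNT, 396 and 453 in HFD C and 485 and 479 in ND C, also lower in 5 of 6 pairs, and both overlapped.

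In the C groups alone, HFD against ND had a median of -0.06 with 27 of 36 below 0, against 51.7% of all genes. Again 0 passed by edgeR or DESeq2, 0 had an unadjusted p under 0.05 in either direction, against 1.4% of all genes each way by edgeR, and the smallest adjusted p was 1.00 by edgeR. Ndufa7 and Ndufb8 had the smallest p, at -0.18 (SE 0.15) and -0.17 (SE 0.15). Ndufb8 stood at 743 and 573 CPM in HFD siNampt, 643 and 684 in ND siNampt, 725 and 801 in HFD siNT, 843 and 767 in ND siNT, 602 and 645 in HFD C and 737 and 663 in ND C. Its HFD C libraries lay below its ND C libraries, by less than the replicates of HFD siNampt lay apart.

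Members have short transcripts, with a median length of 638 bases against 2621 bases over all genes tested, and short transcripts are sensitive to fragment size. Between siNampt and siNT the 21 members under 700 bases had a median of -0.27 and the 15 longer ones -0.14. Across the 36 genes, which share libraries and are not replicates, Spearman's rho of the log2 fold change was 0.48 with length and 0.58 with GC content. Counts corrected for GC and length in each library gave a median of -0.10 with 29 of 36 below 0. With the correction, 5 members were lower at an unadjusted p under 0.05, against 2.27% of all genes, and 0 higher, against 2.6%. They were Ndufa11, Ndufa13, Ndufb8, Ndufs8 and Ndufv2, and 2 of the 5, Ndufb8 and Ndufv2, were among the 18 before. Ndufa11, the longest accessory member at 2661 bases, had a log2 fold change of -0.47 (SE 0.12) with the correction, against -0.14 without it, and Ndufa13, of the same arm, had -0.34 (SE 0.10), against -0.13. After correction rho was -0.22 with length and -0.42 with GC content.

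On the deposited TPM scale, tested with limma on log2(TPM + 1), the median of all genes itself shifted by 0.12 between siNampt and siNT. The median of the members was -0.06, or -0.17 relative to that shift. On this scale 4 members were lower at an unadjusted p under 0.05, against 1.05% of all genes, and they were Ndufa5, Ndufb4, Ndufb5 and Ndufv2. Another 2 were higher, against 15.8% of all genes, Ndufv1 among them at 0.40 (SE 0.13). For siNT against C the median of all genes shifted by -0.10 on that scale and that of the members was 0.06. Ndufv2 was lower, and Ndufv1 higher, in siNampt than in siNT under each of these 3 scalings, with corrected values of -0.24 and 0.07.

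**Figure D5:**
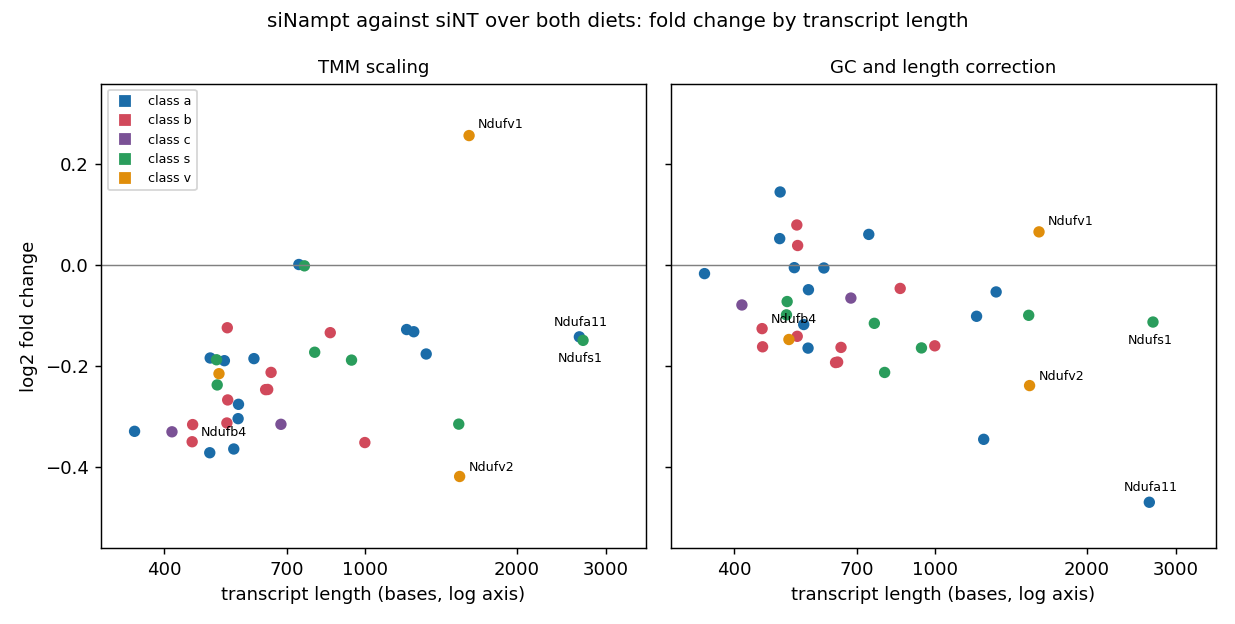
Log2 fold change of siNampt against siNT over both diets against transcript length (bases, log axis) for 35 complex I genes, with TMM scaling on the left and with the GC and length correction on the right. With TMM scaling the 21 of 36 members under 700 bases have a median of -0.27 and the 15 longer ones -0.14. With the correction the median of all 36 is -0.10 and Ndufa11 lies lowest at -0.47.

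Other genes of the pathway were set beside the members in the same fit, and 0 of them passed the threshold between siNampt and siNT. Of 15 complex I assembly factors 11 lay below 0, with a median of -0.18, and 4 were lower and 1 higher at an unadjusted p under 0.05, against 5.05% and 6.1% of all genes. Ndufaf2, an assembly factor that is replaced by Ndufa12, averaged 54.9 ± 7.31 CPM in siNampt and 72.5 ± 10.4 CPM in siNT, a log2 fold change of -0.40 (SE 0.15). Ndufaf7, a mitochondrial methyltransferase, averaged 58.9 ± 3.96 CPM in siNampt and 73.2 ± 3.97 CPM in siNT, a log2 fold change of -0.31 (SE 0.10). Ndufab1, the acyl carrier protein that binds Ndufa6, averaged 354 ± 32.4 CPM in siNampt and 457 ± 48.1 CPM in siNT, a log2 fold change of -0.37 (SE 0.10). Of 38 nuclear subunits of complexes II to V, 31 lay below 0, with a median of -0.26, and 24 were lower and 2 higher at an unadjusted p under 0.05, against the same 5.05% and 6.1% of all genes. Cox7c averaged 1199.9 ± 201 CPM in siNampt and 1621 ± 168 CPM in siNT, a log2 fold change of -0.43 (SE 0.13). Cox6b1 averaged 912 ± 94.1 CPM in siNampt and 1142 ± 77.6 CPM in siNT, a log2 fold change of -0.32 (SE 0.09). Both are subunits of cytochrome c oxidase, and in C they averaged 1289 CPM for Cox7c and 989 CPM for Cox6b1.

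The 83 cytosolic ribosomal protein genes, which make up 6.35% to 7.45% of the counts of a library, had 79 below 0 with a median of -0.19, and 32 lower and 0 higher at an unadjusted p under 0.05, against 5.05% and 6.1% of all genes. Rpl30 averaged 104 ± 12.03 CPM in siNampt and 136 ± 9.42 CPM in siNT, a log2 fold change of -0.39 (SE 0.11). Rps13 averaged 588 ± 53.6 CPM in siNampt and 740.4 ± 62.1 CPM in siNT, a log2 fold change of -0.33 (SE 0.10). Over both diets the complex I median of -0.21 stood between that of the ribosomal proteins and that of complexes II to V, and no difference between these lists was tested. In libraries matched by diet and batch, the ribosomal median difference was -0.33 in ND batch 1, -0.33 in ND batch 2, 0.05 in HFD batch 1 and -0.15 in HFD batch 2. For complex I these were -0.30, -0.23, 0.01 and -0.41. Ribosomal proteins were thus the lower of these lists in ND and complex I in HFD. After the GC and length correction the medians were -0.10 for complex I, -0.05 for complexes II to V and -0.03 for ribosomal proteins. Of 11 transcriptional regulators tested, 7 lay below 0 with a median of -0.10. Tfb1m, a mitochondrial rRNA methyltransferase, averaged 17.9 ± 1.09 CPM in siNampt and 26.3 ± 1.84 CPM in siNT, a log2 fold change of -0.56 (SE 0.14). Tfam, which packages mitochondrial DNA, averaged 84.4 ± 8.16 CPM in siNampt and 95.9 ± 13.7 CPM in siNT, a log2 fold change of -0.18 (SE 0.12).

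In HFD against ND over all treatments the same lists had medians of -0.08 for assembly factors, -0.02 for complexes II to V, 0.10 for regulators and -0.03 for ribosomal proteins, with 0 genes past the threshold. Acad9, an assembly factor related to acyl-CoA dehydrogenases, averaged 64.2 ± 4.63 CPM in HFD and 77.5 ± 9.99 CPM in ND, a log2 fold change of -0.27 (SE 0.09). Ndufaf7 averaged 64.6 ± 7.56 CPM in HFD and 68.8 ± 6.15 CPM in ND, a log2 fold change of -0.09 (SE 0.08). Atp5e, the epsilon subunit of ATP synthase, averaged 270.2 ± 79.1 CPM in HFD and 201 ± 64.3 CPM in ND, a log2 fold change of 0.43 (SE 0.22). Sdhd, of complex II, averaged 354 ± 46.7 CPM in HFD and 377 ± 42.8 CPM in ND, a log2 fold change of -0.10 (SE 0.08). Gabpb2, a partner of the ETS factor Gabpa, averaged 19.4 ± 3.19 CPM in HFD and 15.3 ± 2.44 CPM in ND, a log2 fold change of 0.35 (SE 0.14). Tfb2m, a mitochondrial transcription factor, averaged 43.3 ± 6.28 CPM in HFD and 48.7 ± 5.69 CPM in ND, a log2 fold change of -0.18 (SE 0.11). Among ribosomal proteins, Rps3a1 averaged 1849 ± 195 CPM in HFD and 2071 ± 241 CPM in ND, a log2 fold change of -0.16 (SE 0.08). Rps27l averaged 1563 ± 199.8 CPM in HFD and 1727 ± 214 CPM in ND, a log2 fold change of -0.14 (SE 0.10). Ndufab1 averaged 387 ± 48.4 CPM in HFD and 399 ± 68.2 CPM in ND, a log2 fold change of -0.03 (SE 0.08).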

How the data were processed

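Poly(A) RNA of 12 blastocyst pools was sequenced, 2 libraries in each of 6 groups. The submitters' processing notes name STAR 2.7.10, RSEM 1.2.28 and mm10. Per the file headers the deposited values are RSEM's expected counts, TPM and FPKM per gene. FPKM in the deposited tables was not used. Non-whole values, 6.43% of the expected counts, were rounded. The members, gene lists and tests were chosen with earlier results of these data known.

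Genes were filtered with filterByExpr (minimum count 10 over 6 groups), which left 14743 of 24411 genes, among them all 36 members. Tests on TMM-scaled counts used edgeR 4.0.16 under R 4.3.3 (its quasi-likelihood test, two-sided, Benjamini-Hochberg over all genes tested, threshold 0.05). Diet and treatment as additive terms served the comparisons over both diets and over all treatments, and a model of 6 group means gave the rest, each over 12 libraries. Treatment groups of 4 libraries hold both diets. Libraries were paired across groups by the batch label, which equals the replicate number. Deviations of same-numbered libraries from their group means correlated at -0.0581 to 0.220 over 15 pairs of groups, over 0.1 in 6. Alternatives were DESeq2 1.42.0 and its size factors, limma 3.58.1 on log2(TPM + 1) and with a pseudocount of 0.1, other filters, a replicate block, a GC and length correction (splines with 4 degrees of freedom in each library), fits of the groups compared and of each batch, and leaving out each library. Depth was 42473129 to 50503064 expected counts. The scripts were tested on simulated counts.

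Genes given by library value were Nampt, nuclear core subunits, the members of highest and lowest mean TPM in each class and the 2 of smallest p in each comparison. From each other list the 2 genes of smallest p between siNampt and siNT and between HFD and ND were named, and Ndufab1 is the only gene of its list. Of the members, 1 enters the counts, medians and sums and is itself not reported here, nor drawn in the figures. Positions are from GENCODE on GRCm38. Promoter sequences are RefSeq's on GRCm38.p6, matched by symbol.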

Additional observations from a re-analysis of the deposited data

Results flagged for a closer look

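Of 130 sets of libraries tested over 26 genes, 4 had a library whose gap to the nearest other was large for the range of the set, and chance gives about 1 in 20. The flags are thus no more than chance gives. Ndufc1 was 651 CPM in ND siNT replicate 2, against 574 to 585 CPM in the other 3 siNT libraries. In the same library Ndufv1 was lowest at 132 CPM, against 153 to 156 CPM in the others. Ndufs1 was 229 CPM in HFD C replicate 2, against 213 to 214 CPM in the other 3 C libraries. Ndufv3 was 119.7 CPM in HFD C replicate 1, against 139 to 140.3 CPM in the others.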

How the results depend on the processing

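No complex I gene passed the adjusted threshold in any comparison under any of the alternatives, which include DESeq2 and limma. Of 872 values of named genes under the alternatives, 854 kept their direction and 18 turned. The median of siNT against C was 0.06 in place of 0.21 with the GC and length correction (0.057), with that correction and the replicate block (0.057) and with limma on log2 TPM at each pseudocount or with no filter (0.056). In ND, the median of siNampt against siNT was -0.049 with the correction, -0.049 with correction and block, -0.080 with limma in each form, and -0.32 to -0.23 with a library left out. The limma medians are not relative to all genes, whose own median shifted on the TPM scale, as given above over both diets. Ndufs7, at -0.0008 between siNampt and siNT, was 0.0018 without the filter, 0.014 with a stricter filter, 0.15 with limma in each form and -0.082 to 0.095 with a library left out. With the correction, without and with the block, Ndufa4 was at 0.053 and 0.052 and Ndufb6 at 0.039 and 0.036. Ndufb11 was at 0.027 with limma in each form. In HFD, with a library left out, siNampt against siNT was -0.016 for Ndufv1 without HFD siNampt replicate 2 and 0.31 without replicate 1. The cause of these turns was not tested. With the replicate block on the labelled batch, 0 members passed the threshold in each comparison. As 0 passed without the block too, the calls say little about the pairing. Between siNampt and siNT, members lower at an unadjusted p under 0.05 were 16 with the block and 18 without. Within HFD these were 2 and 1, and within ND 12 and 12. For siNT against C, 11 were higher with the block and 8 without. With 2 libraries a group, SE within a diet were near 0.16.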
